A study of Mus musculus with 34 samples.

Results

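The Il6 locus was taken as the gene Il6 (ENSMUSG00000025746.11) and every called peak that reached within 200 kb of its start site. On the mm10 (GRCm38) build, Il6 lies on the plus strand of chromosome 5 from 30013114 to 30019981 in the GENCODE vM21 annotation. The start site used was that of the transcript of greatest spliced length, at 30013144, so the window ran from 29813144 to 30213144. Il6 is 1 of 55413 annotated genes and 1 of 21938 that code for protein. The window held 787 of the 1393623 peaks in 30 peak lists. Distances from the start site are given in kb, and a negative distance is upstream.

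The lists came from ChIP-seq of bone marrow-derived dendritic cells (BMDCs), grown for 6 days with GM-CSF from C57BL/6 mice 8 weeks old. WT and WTLPS cultures were CreER, and KO and KOLPS cultures were CreER;CTCFfl/fl, so that all 4 groups carried the tamoxifen-inducible Cre recombinase. WTLPS and KOLPS received lipopolysaccharide (LPS), a bacterial ligand of Toll-like receptor 4, at 100 ng/ml for 3 h, and WT and KO did not. Lists for the NF-κB subunit p65, the cohesin subunit SMC1, CTCF, H3K27ac, H3K4me1, H3K4me3 and H3K27me3 covered the 4 groups, whereas STAT5 was profiled in WT and KO without LPS, after renewed GM-CSF for 15 min. CreER was expressed from Rosa26, a locus active in most cell types, and 4-OH-tamoxifen was added when the cultures were started, on the first day, so that deletion was not restricted to dendritic cells. Each antibody and group had 1 list, so no difference below could be tested over replicates. The study used biological replicates for ChIP-seq, and which of them, or whether a merge of them, went into a given list is not given in the sources used here. Intervals in parentheses are exact 95% intervals and cover counting error only. In such bulk samples, a peak carried by fewer cells and a weaker peak in each cell cannot be told apart.

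IL-6 is an inflammatory cytokine that dendritic cells and macrophages secrete when they sense bacterial products. Its transcription is a classical target of NF-κB, whose p65 subunit enters the nucleus after Toll-like receptor signalling, together with C/EBP, AP-1 and CREB family factors that bind next to it. CTCF and cohesin shape chromatin loops between promoters and distant enhancers, which carry H3K4me1 and, when active, H3K27ac. H3K4me3 marks active promoters, and H3K27me3 marks chromatin repressed by Polycomb.

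Fragment numbers at summits were recovered from the deposited fold enrichments and p-values, since the lists hold no read counts. The background, in fragments covering a base, ranged from 0.705 to 0.855 in the p65 lists, from 1.33 to 1.7 in the STAT5 lists, from 4.5 to 5.76 in the SMC1 lists, from 2.82 to 3.74 in the CTCF lists and from 0.748 to 1.2 in the H3K27ac lists. The H3K27ac background was lower in KO (0.748) and KOLPS (0.801) than in WT (1.17) and WTLPS (1.2). CTCF lists held 60537 peaks in WT, 54020 in WTLPS, with 20151 in KO and 11576 in KOLPS, the check on the deletion that these lists allow. All 12 markers of dendritic and myeloid cells that were listed had an H3K4me3 peak at the promoter in each of the 4 groups. Of 32 listed markers of these and other cell types, between 19 and 20 had such a peak, and the T cell genes Cd3e, Cd3d and Cd4 and the B cell gene Cd79a had none. Of the markers of other cell types, Lck (T cells), Pax5 (B cells), S100a8 (neutrophils), Klf1 (erythroid cells), Col1a1 and Pdgfra (fibroblasts) and Epcam (epithelium) had one in all 4 groups, and Krt8 (epithelium) in KO only. H3K27me3 peaks also lay at the promoters of Pax5, Col1a1, Pdgfra and Epcam in all 4 groups, and at S100a8 and Krt8 in all but KOLPS. Klf1 had one in WTLPS and KO, and Lck in no group. Of the dendritic and myeloid markers, Zbtb46 and Flt3 had one in all 4 groups. An H3K4me3 peak at a marker does not by itself show that cells of that type were present. The part of other cell types in the results was not tested.

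The sequences that the results turn on are the Il6 promoter, the site that held the strongest p65 and STAT5 peaks of the locus, and the motif matches at the summits. The promoter is given for chr5:30012864-30013113 on the plus strand (RefSeq, GRCm38), up to the RefSeq start. Capitals mark, from the left, AP-1 (TGANTCA), the cyclic AMP response element CRE (GACGTCA), C/EBP (TTGCNNAA, read on the minus strand) and the κB motif that NF-κB recognises. All motifs were searched on both strands.

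Il6 promoter: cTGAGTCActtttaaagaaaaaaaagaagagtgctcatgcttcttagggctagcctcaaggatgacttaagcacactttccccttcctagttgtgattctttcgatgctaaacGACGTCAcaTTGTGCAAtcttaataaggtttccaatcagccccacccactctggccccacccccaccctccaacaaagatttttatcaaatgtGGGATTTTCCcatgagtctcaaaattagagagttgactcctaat

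The κB match began 74 bp upstream of the start site used, at 30013070, and 44 bp upstream of the RefSeq start. The C/EBP match lay at 30012986 to 30012993 and the CRE match at 30012977 to 30012983, a few bases apart, and the AP-1 match at 30012865 to 30012871. Of 32851 RefSeq promoter sequences of the same kind, 7.25% held a κB match, 6.75% AP-1, 9.56% C/EBP and 2.78% CRE. PU.1 (GAGGAAGT, in 2.44% of promoters) and STAT5 (TTCNNNGAA, in 7.02%) letters were not in this promoter sequence.

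The site at -64.8 kb is given for the 201 bases around the WTLPS p65 summit, chr5:29948293-29948493 on the plus strand, read like the shorter stretches below from the RefSeq genome sequence of GRCm38. It lies over an exon of Gm43386, a transcript model of the class TEC, which awaits experimental evidence. No capitals are used, because none of the 7 motifs searched matched these bases.

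-64.8 kb site: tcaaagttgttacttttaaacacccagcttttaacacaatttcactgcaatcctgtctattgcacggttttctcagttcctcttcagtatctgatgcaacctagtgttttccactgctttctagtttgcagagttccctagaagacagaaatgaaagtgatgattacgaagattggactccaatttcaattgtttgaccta

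The CTCF peaks nearest to Il6 are shown by 30 bases around the CTCF match at their summits, with the match in capitals. The matches at +0.088 and +1.66 kb lie in an Il6 intron and are read on the minus strand, and that at -17.2 kb lies in a masked repeat on the plus strand.
+0.088 kb, chr5:30013222-30013251: tcaatagctCCGCCAGAGGGCaaggaactg
+1.66 kb, chr5:30014762-30014791: caacaagcaCCACTAGAGGGCcaagtcatg
-17.2 kb, chr5:29995928-29995957: tcaaactcaCCAGAAGAGGGCatcagatct

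Peaks of p65 at Il6 were called almost entirely in WTLPS. WT had 1 p65 peak in the window, WTLPS 14, KO 1 and KOLPS 2, all of them upstream of the start site. The whole p65 lists held 781, 5465, 504 and 1752 peaks in the same order. Of the same windows around 21938 protein-coding genes, 0.178% held as many or more p65 peaks as Il6 in WTLPS (39 windows), against 16% in WT, 10.9% in KO and 12.1% in KOLPS. With 400 kb to either side the share was 0.479% in WTLPS and 27.2%, 19.4% and 12.5% in WT, KO and KOLPS, and with 100 kb it was 0.201% and 8.65%, 5.9% and 5.43%. The windows with the most WTLPS p65 peaks were those of Tnfaip3, a feedback inhibitor of NF-κB, with 22, and of the chemokine genes around Cxcl5, with 20. In WTLPS the peaks lay between -151 and -0.189 kb, and 13 of the 14 lay at -40.1 kb or farther.

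The strongest p65 peak in every group lay at -64.8 kb. It held 22 fragments (13.8 to 33.3) in WT, 102 (83.2 to 124) in WTLPS, with 16 (9.15 to 26) in KO and 33 (22.7 to 46.3) in KOLPS. Fold enrichment is the ratio of fragments to local background at the summit, with the same constant added to both. For this peak it was 13.4 in WT, 55.5 in WTLPS, with 9.97 in KO and 18.7 in KOLPS. The WTLPS interval lay above those of the other groups, whereas the intervals of WT, KO and KOLPS overlapped. STAT5, a transcription factor activated by GM-CSF, had its strongest peak of the window at the same place, with 71 fragments (55.5 to 89.6) in WT and 54 (40.6 to 70.5) in KO. SMC1 had 88 fragments there in WT, 178 in WTLPS, with 93 in KO and 86 in KOLPS, and H3K27ac peaks over it reached 31, 50, 14 and 30 fragments in the same order. The folds were 13.9, 26.5, 14.8 and 15.8 for SMC1 and 14.7, 23.2, 8.58 and 17.2 for H3K27ac. For both, KOLPS lay below WT by fragments and above it by fold, and the backgrounds of these lists differ. H3K4me1 peaks covered the site in all 4 groups, no CTCF, H3K4me3 or H3K27me3 peak did, and 18 of the 30 lists had a peak there.

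**Figure D1:**
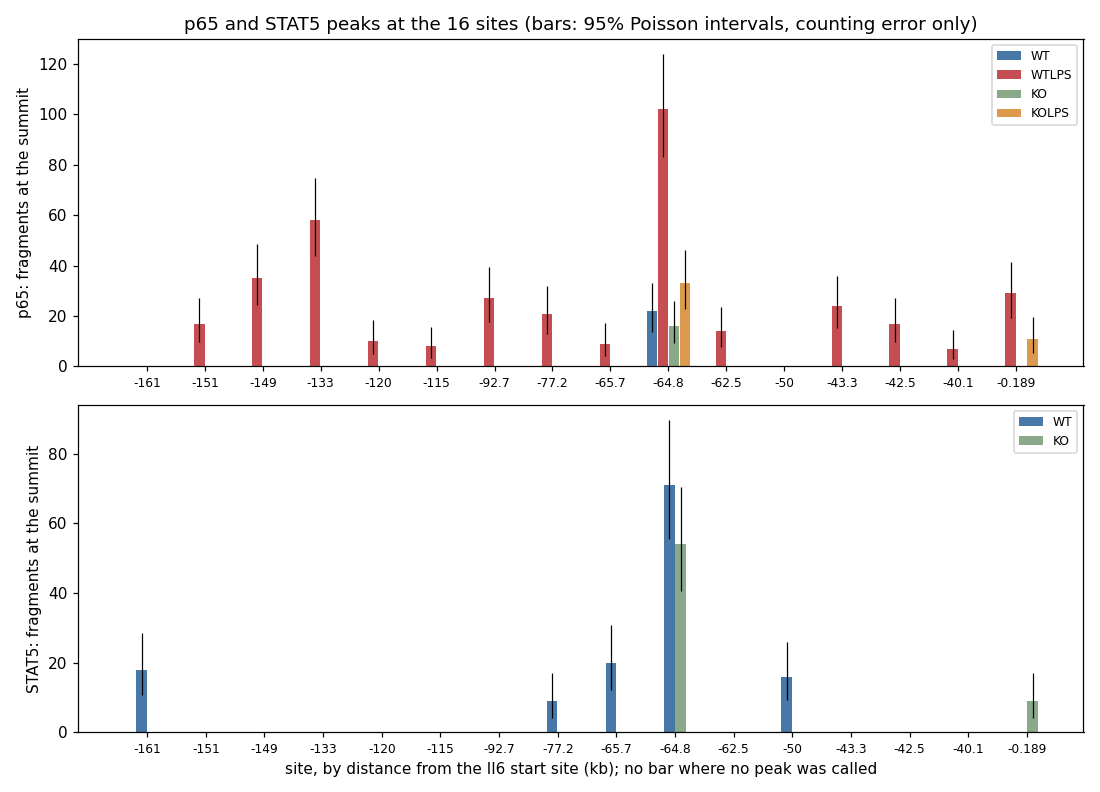
Fragments at the summit of each p65 peak (upper panel, WT, WTLPS, KO and KOLPS) and each STAT5 peak (lower panel, WT and KO) at the 16 sites of the Il6 window, ordered by distance from the start site in kb. Bars are fragment numbers of 1 list each with exact 95% Poisson intervals, and the site at -64.8 kb is the only site with a p65 peak in all 4 groups, reaching 102 fragments in WTLPS.

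The other distal p65 sites were called in WTLPS alone. The peak at -133 kb (chr5:29879984-29880619) was the second strongest, with 58 fragments and a fold of 31.8. SMC1 was called there in WTLPS with 108 fragments and in KOLPS with 28, and not in WT or KO. H3K27ac at this site held 9 fragments in WT, 32 in WTLPS and 17 in KOLPS, with no peak in KO. SMC1 and H3K27ac were thus called in KOLPS at a site where p65 was not.

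The peaks at -149 kb and -151 kb held 35 and 17 p65 fragments. SMC1 at -149 kb was called in WTLPS only, with 56 fragments, and at -151 kb in WT (25), WTLPS (70) and KOLPS (26). H3K27ac covered both sites in WTLPS and KOLPS and neither in WT or KO. At -92.7 kb (27 p65 fragments) and -77.2 kb (21), SMC1 and H3K27ac peaks were present in all 4 groups. SMC1 held 31, 76, 23 and 34 fragments at -92.7 kb and 28, 72, 23 and 38 at -77.2 kb in WT, WTLPS, KO and KOLPS.

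The sites at -43.3 kb and -42.5 kb held 24 and 17 p65 fragments in WTLPS and lay under the same WTLPS SMC1 peak of 52 fragments. At -43.3 kb SMC1 was also called in KOLPS (19 fragments), and at -42.5 kb in WTLPS only. The site at -40.1 kb had the weakest p65 peak, 7 fragments with a fold of 4.31, but SMC1 in all 4 groups (27, 52, 24 and 28 fragments). The remaining distal peaks, at -120, -115, -65.7 and -62.5 kb, held between 8 and 14 fragments. The smallest pileup called was 7 fragments in the WT, KO and KOLPS lists and 6 in WTLPS. Scaled to the coverage of KOLPS, the chance of reaching that pileup was 72.7% for the peak at -40.1 kb, 95.4% at -115 kb and at least 99.4% for the other 12. Scaled to the coverage of WT, it was 28% at -40.1 kb, 60.7% at -115 kb and 82.3% at -65.7 kb. Such chances scale the observed fragments by the ratio of backgrounds and leave out differences in enrichment between lists.

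STAT5 peaks were fewer in KO than in WT, both over the whole lists (6850 against 8185) and at Il6. WT had 5, at -161 kb with 18 fragments, -77.4 kb with 9, -65.8 kb with 20, -64.8 kb with 71 and -50 kb with 16. KO had 2, at -64.7 kb with 54 fragments and at -0.326 kb with 9, the smallest pileup called in that list. Of the WT peaks, 1 of 5 overlapped a KO STAT5 peak (20%, 0.505 to 71.6). Of all WT STAT5 peaks 64.8% did, a share inside that interval. A WTLPS p65 peak overlapped 3 of the 5 WT STAT5 peaks (60%, 14.7 to 94.7), an interval that includes the 18% across the genome. The site at -161 kb held the only STAT5 motif within 50 bp of a STAT5 summit of the window, in 1 of 5 WT peaks, and 37.9% of all WT STAT5 summits had a match. It is given with its motif in capitals, on the plus strand, since it is the sole match.
-161 kb, chr5:29852639-29852667: ttcttgttctTTCGAGGAAatttgtcaca

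At the Il6 promoter, taken as the 2.5 kb on each side of the start, a p65 peak was called in both LPS-treated groups and in neither untreated group. WTLPS had 29 fragments (19.4 to 41.6) with a fold of 16.2 at -0.189 kb, in a peak over chr5:30012746-30013305. KOLPS had 11 fragments (5.49 to 19.7) with a fold of 6.6 at -0.228 kb, in a peak over chr5:30012638-30013004. The intervals overlapped slightly, from 19.4 to 19.7. Across protein-coding promoters, 2.86% had a p65 peak in WTLPS, 1.86% in KOLPS, 0.474% in WT and 0.342% in KO. STAT5 was called at the Il6 promoter in KO only, where 3.29% of promoters had a peak, and not in WT, where 3.96% had.

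The WTLPS p65 summit at the promoter lay 34 bp from the C/EBP match in the sequence above and 115 bp from the κB match. Within 50 bp of the summit, 1 of the 14 WTLPS p65 peaks at Il6 had a κB match, against 13.4% of all WTLPS p65 summits and 1.56% of windows 1 kb away. That match was at -92.7 kb, given here on the plus strand because it is the only κB match close to a p65 summit of the window. Its letters match on both strands.
-92.7 kb, chr5:29920427-29920456: agtgtaaaagGGGATCTCCCcttttcttcc
With 1 mismatch allowed, a setting chosen after the data were seen, 6 of the 14 had a match, against 41.8% of all summits, and with the whole peak searched, also chosen later, 2 of the 14 had an exact match, against 27.6% of all peaks. C/EBP matches lay within 50 bp of 4 of the 14 summits (28.6%, 8.39 to 58.1), at -151, -92.7, -40.1 and -0.189 kb, against 13.2% of all summits. AP-1 matches lay at 2 of the 14, at -120 and -65.7 kb, against 11.2%, and PU.1 at 0 of 14, against 4.19%. The C/EBP match at the summit at -151 kb is given on the minus strand.
-151 kb, chr5:29861663-29861692: tagagaataatTTGCATAActacactaaaa

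Histone marks at the promoter were present in all 4 groups. H3K27ac over the p65 site held 15 fragments in WT, 51 in WTLPS, with 14 in KO and 20 in KOLPS, with folds of 7.36, 23.7, 8.58 and 11.7. H3K27ac peaks lay at 44.1% of promoters in WT, 41.3% in WTLPS, with 44.5% in KO and 40.8% in KOLPS. The strongest H3K4me3 peak at the promoter held 18, 40, 13 and 18 fragments, with folds of 8.52, 19, 6.36 and 8.93. In WTLPS both marks were the highest of the 4 groups. KOLPS lay above KO for both by few fragments, with overlapping counting intervals (20 against 14 for H3K27ac and 18 against 13 for H3K4me3). These differences were not tested.

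H3K4me3 also differed in position. In WT it covered 1534 bp from 30012606 to 30014139, in WTLPS 4092 bp from 30013170 to 30017261 and in KOLPS 2502 bp from 30013104 to 30015605. In KO there were a pair of peaks, of 810 bp ending at 30013132 and of 621 bp starting at 30013330. With LPS the peak thus began at the start site and reached farther into the gene. H3K4me3 peaks lay at 56.7%, 57%, 57.2% and 56.2% of promoters in WT, WTLPS, KO and KOLPS. No H3K27me3 peak lay at the Il6 promoter in any group, where 27.1%, 20.8%, 27.6% and 11.8% of promoters had one.

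CTCF was called at Il6 itself at a pair of sites within the gene. At +0.088 kb, WT had 29 fragments and WTLPS 23 at +0.099 kb, with no peak in KO or KOLPS. At +1.66 kb, WT had 109 fragments, the strongest CTCF peak of the window, WTLPS had 69 at +1.65 kb and KO had 16 at +1.71 kb, and none was called in KOLPS. Both sites held the CTCF matches printed above, the one at +1.66 kb without a mismatch. CTCF peaks lay at 29.5%, 27.2%, 19.1% and 10.1% of promoters in WT, WTLPS, KO and KOLPS.

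SMC1, the cohesin subunit, lay at the same places in WT, with 48 fragments at +0.078 kb and 127 at +1.63 kb. In WTLPS a single SMC1 peak of 3053 bp covered both, with its summit of 92 fragments at +1.64 kb. In KO the only SMC1 peak at the promoter had its summit at -0.238 kb with 38 fragments, and in KOLPS one of 57 fragments lay at -0.288 kb and another of 19 at +1.45 kb. The strongest SMC1 summit therefore lay inside the gene at the CTCF match in WT and WTLPS, and upstream of the start site in KO and KOLPS. The latter position is near the p65 summits of WTLPS and KOLPS, while KO had no p65 peak at the promoter. SMC1 peaks lay at 30.4%, 27.1%, 21.6% and 13.9% of promoters in WT, WTLPS, KO and KOLPS.

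Across the window, CTCF peaks numbered 25 in WT, 25 in WTLPS, with 6 in KO and 1 in KOLPS. They lay mostly downstream, with 5 upstream in WT, 6 in WTLPS, with 0 in KO and 1 in KOLPS. The upstream peaks with the most fragments in WT were at -188 kb (104 fragments in WT, 79 in WTLPS) and -17.2 kb (62 and 59). The single KOLPS peak lay at -188 kb, with 15 fragments, and KO had none there. Of the WT peaks, 20 of 25 overlapped a WTLPS CTCF peak (79.4% across the genome), 4 of 25 a KO peak (23.7%) and, of the WTLPS peaks, 1 of 25 overlapped a KOLPS peak (17.5%). The shares at Il6 were near or below those over all CTCF peaks.

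A CTCF match with at most 1 mismatch lay within 50 bp of 10 of the 25 WT CTCF summits, against 35.6% of all WT CTCF summits. In a count added after the data were seen, 7 of these 10 lay in repeats masked in the reference, against 48.5% of matched summits in the genome. The same 7 shared a single word of letters, that capitalised at -17.2 kb above, which 40.4% of matched summits had across the genome. It is known from rodent B2 short interspersed elements. The matches at +0.088, +1.66 and +81.5 kb were outside repeats.

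**Figure D2:**
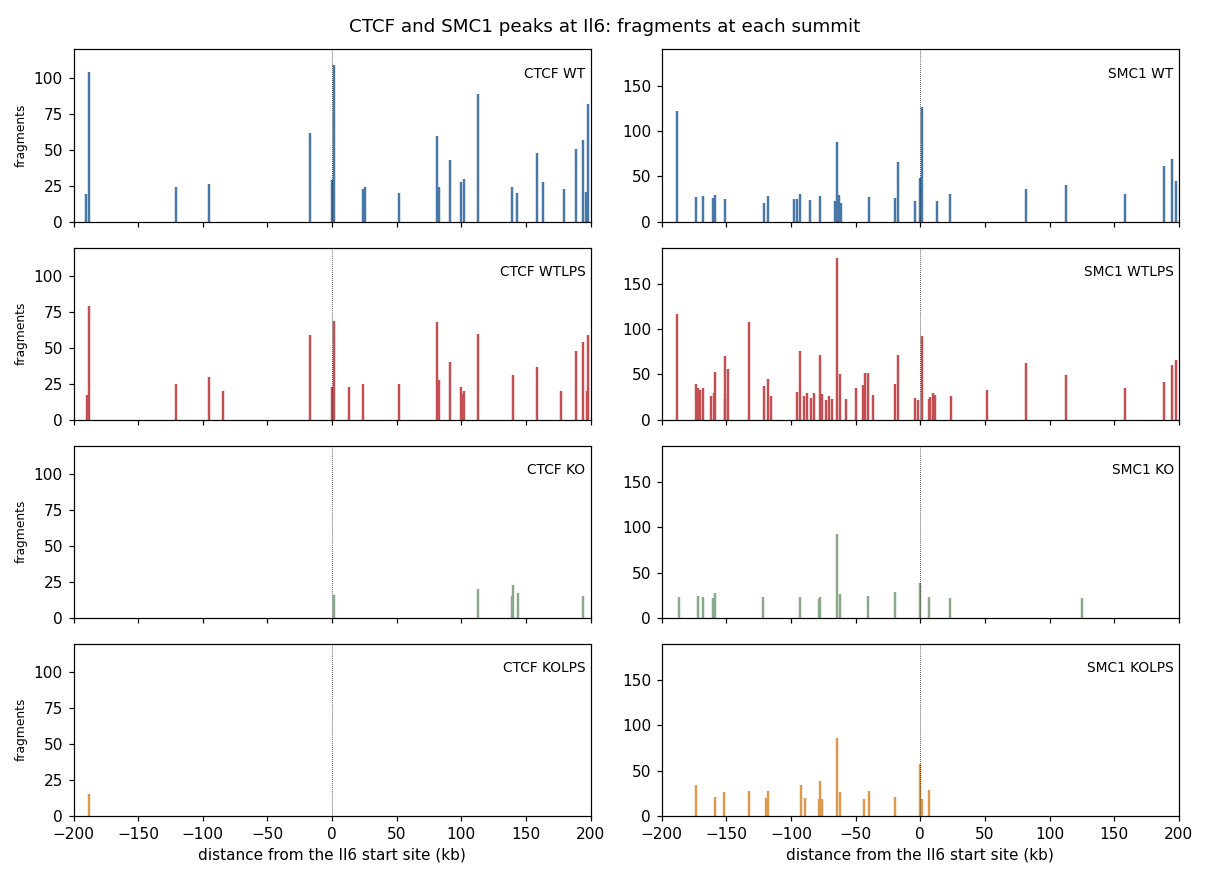
Fragments at the summit of each CTCF peak (left) and SMC1 peak (right) within 200 kb of the Il6 start site, 1 panel for each of WT, WTLPS, KO and KOLPS, against distance in kb. CTCF bars fall from 25 in WT to 6 in KO and 1 in KOLPS, while SMC1 bars remain upstream of the start site in KO and KOLPS, the highest at -64.8 kb.

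SMC1 peaks numbered 31 in WT, 51 in WTLPS, with 17 in KO and 19 in KOLPS, of which 21, 38, 14 and 17 lay upstream. The whole SMC1 lists held 63638, 57354, 29965 and 17241 peaks in the same order. Windows with as many or more SMC1 peaks made up 16.5% of protein-coding genes in WT, 0.611% in WTLPS, with 15% in KO and 2.68% in KOLPS. Of the 51 WTLPS peaks, 24 overlapped a WT SMC1 peak (47.1%, 32.9 to 61.5), whereas 81.9% of all WTLPS SMC1 peaks did. A CTCF peak overlapped 14 of the 51 (27.5%, 15.9 to 41.7, against 53.9% in all), a p65 peak 11 (21.6%, 11.3 to 35.3, against 8.12%) and an H3K27ac peak 43 (84.3%, 71.4 to 93, against 35%). The shares of the whole list lay outside these 4 intervals, which treat neighbouring peaks as independent, and the differences were not tested. In WTLPS, H3K27ac covered 154 kb of the 200 kb upstream, where 38 of the 51 lay, and the window held 14 p65 peaks. The whole-list shares are therefore not like baselines for the overlaps with H3K27ac and p65.

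SMC1 peaks with and without CTCF were set apart in the comparison with the CTCF-deleted groups. Of 12 WT SMC1 peaks with a CTCF peak, 2 overlapped a KO SMC1 peak (16.3% across the genome), and of 19 without CTCF, 12 did (55.7%). In the LPS-treated groups, 1 of 14 WTLPS peaks with CTCF overlapped a KOLPS peak (10.8%), and of 37 without CTCF, 15 did (37.9%). Among the WTLPS SMC1 peaks with p65 and without CTCF, 8 of 10 overlapped a KOLPS SMC1 peak, where 73.7% did across the genome. No SMC1 peak at Il6 overlapped a CTCF peak in KO (0 of 17, which allows up to 19.5%, against 12.7% across the genome) or KOLPS (0 of 19, up to 17.6%, against 12.7%). SMC1 at Il6 was thus found in KO and KOLPS mostly at sites where WT and WTLPS had SMC1 without CTCF. The shares kept at Il6 lay near those over all SMC1 peaks, so this pattern is not particular to the locus.

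Of the 14 WTLPS p65 peaks, 1 overlapped a WT p65 peak (13.3% over all WTLPS p65 peaks), 1 a KO peak (7.61%) and 2 a KOLPS peak (14.3%, 1.78 to 42.8, against 22.7%). An SMC1 peak lay under 8 of the 14 in WT (72.4%), 13 in WTLPS (88%), with 7 in KO (66.8%) and 10 in KOLPS (65.2%). An H3K27ac peak lay under 11 in WT (64.6%), all 14 in WTLPS (75.4%), with 6 in KO (66.2%) and 13 in KOLPS (66.3%). An H3K4me1 peak lay under 13 in WT (89.1%), 12 in WTLPS (90.6%), with 13 in KO (86.6%) and 11 in KOLPS (71.4%). The percentages in parentheses without intervals are those of the whole list. H3K27ac at Il6 came to 78.6%, 100%, 42.9% and 92.9% of the 14 in WT, WTLPS, KO and KOLPS, farther from them than H3K4me1. With 14 sites the intervals are wide. They included the whole-list share for every count except H3K27ac in WTLPS (76.8 to 100, against 75.4%). These differences were not tested. The p65 sites of WTLPS therefore mostly carried H3K4me1 in each group, and in KOLPS 13 of the 14 touched an H3K27ac peak, while 2 had a p65 peak. That count of 13 rests on an overlap of 1 bp, and with 50% of the p65 peak to be shared it was 6 of 14 (42.9%).

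**Figure D3:**
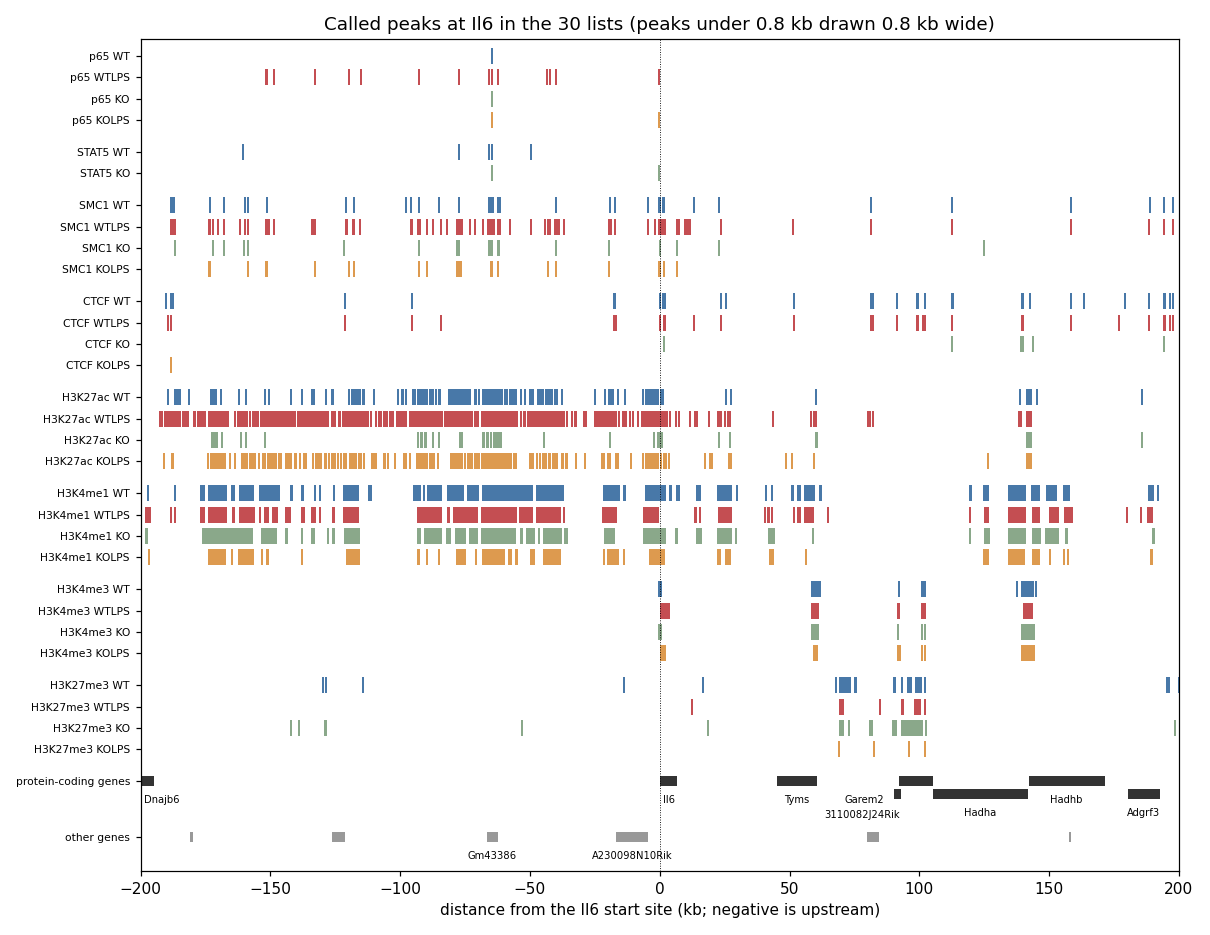
Called peaks within 200 kb of the Il6 start site in the 30 lists, by distance in kb, with protein-coding and other genes below. Each row is 1 list, peaks narrower than 0.8 kb are drawn at that width, and p65, STAT5 and most H3K27ac peaks lie upstream of Il6 while most CTCF peaks of WT and WTLPS lie downstream.

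H3K27ac covered 57 kb of the 400 kb window in WT, 169 kb in WTLPS, with 13.7 kb in KO and 65.7 kb in KOLPS. Most of it was upstream, with 52.4, 154, 10.1 and 59.6 kb, against 4.65, 14.6, 3.61 and 6.08 kb downstream. The covered length at Il6 was 2.96 times as large in WTLPS as in WT and 4.78 times as large in KOLPS as in KO, while over the genome these ratios were 0.979 and 0.785. KO had 0.241 times the covered length of WT and KOLPS 0.389 times that of WTLPS, with 0.678 and 0.544 over the genome. The lower backgrounds of the KO and KOLPS lists go with these differences between genotypes, and their part in them was not tested.

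Among the windows of all protein-coding genes, the difference between WTLPS and WT at Il6, 112 kb, was exceeded only by that of Tnfaip3, at 114 kb, and the median window differed by -0.282 kb. The difference between KOLPS and KO, 51.9 kb, was the largest of the 21938 windows, ahead of Tnfsf8 (46.8 kb), which encodes the CD30 ligand, and Tnfaip3 (46.6 kb). The difference between KOLPS and WTLPS, -103 kb, ranked 5, after Itgb8, Rln1, Insl6 and Tnfsf15. Windows of neighbouring genes overlap, so that the ranks are not of independent regions. H3K27ac at Il6 thus covered more bases with LPS in both genotypes, by more than at nearly all other windows, and fewer in KOLPS than in WTLPS. Windows that covered at least as much as Il6 made up 4.49% in WT, 0.0456% in WTLPS, with 36.1% in KO and 0.734% in KOLPS.

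**Figure D4:**
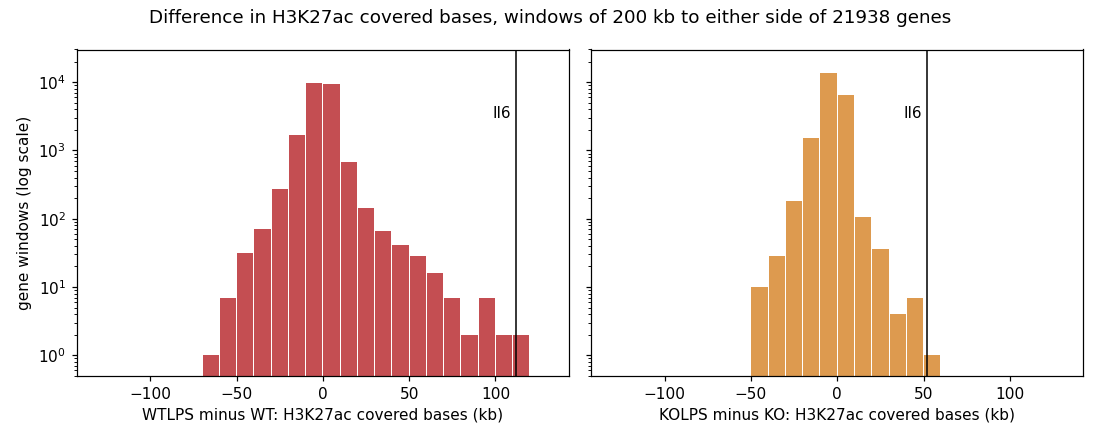
Histograms of the difference in bases covered by H3K27ac peaks (kb) in windows of 200 kb to either side of 21938 protein-coding genes, WTLPS minus WT (left) and KOLPS minus KO (right), with the number of windows on a log axis. The vertical line marks Il6, at 112 kb on the left and 51.9 kb on the right.

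The difference extended over the upstream 200 kb. In the bin from -160 to -140 kb, H3K27ac covered 1.66 kb in WT, 18.9 kb in WTLPS, with 0.311 kb in KO and 8.27 kb in KOLPS. In the bin from -80 to -60 kb, which holds the site at -64.8 kb, it covered 14.7, 19, 5.42 and 14.3 kb in that order, so that coverage there was already high in WT. In the bin that starts at 0, which holds the body of Il6, it covered 1.37, 6.39, 0.69 and 2.8 kb. The bin from +140 kb, with the promoters of Hadha and Hadhb, had 2.21, 2.3, 2.11 and 1.82 kb.

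**Figure D5:**
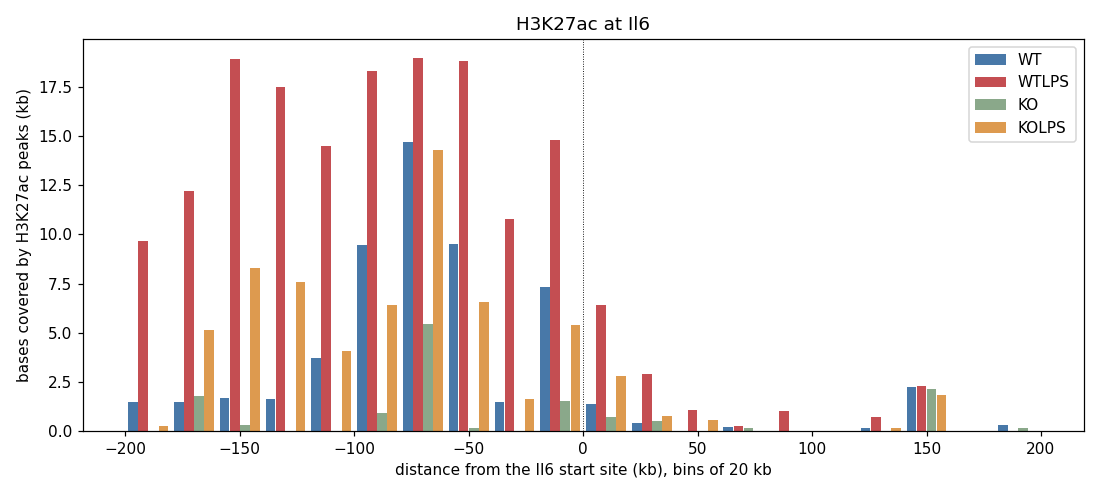
Bases covered by H3K27ac peaks (kb) in bins of 20 kb across the Il6 window, for WT, WTLPS, KO and KOLPS, against distance from the start site in kb. Each bar is 1 list, and WTLPS bars are the tallest in every bin upstream of Il6, reaching 19 kb of the 20 kb from -80 kb.

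Peak number and covered length gave different orders for H3K27ac. WT and WTLPS had 89 peaks each, KO had 34 and KOLPS 154. The median width was 306 bp in WT, 573 bp in WTLPS, with 247 bp in KO and 250 bp in KOLPS, and the widest peaks were 4.05, 15, 1.66 and 2.98 kb. The widest WTLPS peak ran over chr5:29961814-29976788 and held the p65 sites at -43.3, -42.5 and -40.1 kb. In WT and KOLPS several separate peaks covered the same region. Over the genome the median widths were 369, 392, 271 and 242 bp.

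H3K4me1 differed less between groups than H3K27ac. It covered 146 kb in WT, 138 kb in WTLPS, with 128 kb in KO and 81 kb in KOLPS, with 43, 44, 35 and 33 peaks. The ratio of KOLPS to WTLPS was 0.585 at Il6 and 0.565 over the genome, and that of KOLPS to KO was 0.632 and 0.64, close to the whole list in both. Upstream of the start site H3K4me1 covered 102 kb in WT and 93.4 kb in KO, where H3K27ac covered 52.4 and 10.1 kb.

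H3K27me3 covered 16.1 kb in WT, 6.27 kb in WTLPS, with 17.6 kb in KO and 1.86 kb in KOLPS. Only 4 of its peaks in WT and 4 in KO lay upstream of Il6, with 0 in WTLPS and 0 in KOLPS, and their folds were between 2.85 and 3.07. Most lay from +68 to +102 kb around Garem2, where KO had a peak of 8276 bp. The ratios between groups at Il6, 0.391 for WTLPS to WT and 0.106 for KOLPS to KO, stood beside 0.484 and 0.166 over the genome.

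The protein-coding genes whose start sites lay in the window were all downstream of Il6, and none had a p65 or STAT5 peak at its promoter. Tyms, thymidylate synthase, at +60.4 kb, had H3K4me3 folds of 27.3, 35.3, 20.4 and 19.3 in WT, WTLPS, KO and KOLPS and H3K27ac folds of 4.6, 4.55, 4 and 5. Hadha and Hadhb, subunits of the mitochondrial enzyme of fatty acid oxidation, at +142 kb, had H3K4me3 folds of 40.8, 40.8, 31.8 and 32.4 and H3K27ac folds of 13.8, 16.8, 10.3 and 11.7. Garem2 at +92 kb and 3110082J24Rik at +92.9 kb shared a weak H3K4me3 peak of folds between 4.48 and 5.43 and had no H3K27ac peak. Adgrf3 at +193 kb, an adhesion receptor gene, had no H3K4me3 peak. The H3K27ac fold at the Il6 promoter was 23.7 in WTLPS and 7.36 in WT, a wider gap than at these neighbours, and the difference between them was not tested.

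A list of 36 genes of the IL-6 pathway was read for p65 peaks at the promoter, of which 3 had a peak in WT, 11 in WTLPS, with 3 in KO and 7 in KOLPS (8.33%, 30.6%, 8.33% and 19.4% of the list, beside the shares of all protein-coding promoters given above). Of 12 receptor and signalling genes, 1, 3, 0 and 2 had such a peak. Of 7 ligands related to IL-6, 0, 1, 0 and 0 had one, and of 17 factors that act on the Il6 promoter or mRNA, 2, 7, 3 and 5 had one. The highest WTLPS folds were at Nfkb2 (10.5, 17.8, 10.6 and 12.1 in WT, WTLPS, KO and KOLPS), which encodes an NF-κB precursor. Nfkbiz, whose product is a nuclear coactivator needed for Il6 transcription, had no peak in WT and folds of 17.2, 8.8 and 12.1 in WTLPS, KO and KOLPS. Rel, another NF-κB subunit, had 7.01, 13.5, 13.5 and 15.4.

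Junb, an AP-1 factor, had p65 folds of 11.9 in WTLPS and 6.05 in KOLPS, and Jak2, a kinase of the IL-6 receptor complex, 7.55 in WTLPS and 11.6 in KOLPS. Il27 (8.08), a cytokine subunit of the IL-6 family, Rela (7.55), which encodes p65, Stat3 (4.85), which relays the IL-6 signal, and Irf1 (4.85), an interferon regulatory factor, had a peak in WTLPS and in no other group. A fold of 4.85 is near the floor. At -115 kb from Il6 it stood for 8 fragments, where the other lists called no pileup under 7. The chance of reaching that pileup was 60.7% at the WT coverage and 57.7% at the KO coverage. Il6ra, the IL-6 receptor, had 6.42 in WT, 4.85 in WTLPS and 5.5 in KOLPS. The p65 peak of the Il6 promoter itself, with 16.2 in WTLPS and 6.6 in KOLPS, lay within this range. STAT5 peaks lay at 11 of the 36 promoters in WT and 9 in KO, and H3K4me3 at 32 in WT, WTLPS and KO and 33 in KOLPS. Over all protein-coding promoters, STAT5 lay at 3.96% in WT and 3.29% in KO, and H3K4me3 at between 56.2% and 57.2%.

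By the correlation of peak numbers over the 30 lists, the windows most like Il6 were those of Tm9sf4 (r = 0.883), Cblb (0.877), Tnfsf15 (0.876), Rcl1 (0.872) and Ccr9 (0.866). The p65 peak numbers in WT, WTLPS, KO and KOLPS were 2, 11, 1 and 4 for Tm9sf4, 0, 5, 0 and 0 for Cblb, 1, 17, 0 and 2 for Tnfsf15, 1, 9, 1 and 2 for Rcl1 and 1, 12, 1 and 1 for Ccr9. The 30 points are not independent, since several lists come from the same groups and antibodies, and r is given as a description.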

How the data were processed

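The authors trimmed reads, aligned them to mm10, removed duplicates and called peaks against input with MACS2. Per the labels' processing notes the tools were BWA 0.7.12, Picard 1.77, MACS2 2.1.2 and deepTools 3.1.3. Each deposited peak carries a fold enrichment over the local background, with a −log10 p-value and a −log10 q-value. Of 30 lists, 22 are narrow and 8 (H3K4me1, H3K27me3) broad, with no summit. The H3K27ac lists are narrow, and the peak-calling command in the paper's methods names no broad option for any mark. CTCF and SMC1 lists begin at a −log10 p of 7, and the other narrow lists between 3.02 and 6.05, so a missing CTCF or SMC1 peak means none above a stricter level. The 4 inputs had no list here. Fragments at a summit were solved from fold and −log10 p under the Poisson model of the peak caller (at most 0.002 from the deposited −log10 p), and for at least 99.96% of narrow peaks with −log10 p under 25. Peaks were matched to GENCODE vM21 (GRCm38), and 0 reached beyond a chromosome end. Overlap needed 1 bp. The solving step was tested on simulated data. Named genes were Il6, its protein-coding neighbours, the 5 windows most like it and up to 10 pathway genes with a p65 promoter peak by WTLPS fold. The members, lists and named genes were chosen with earlier results of these data known. Python 3.11.15, numpy 2.4.6, scipy 1.17.1 and matplotlib 3.10.9 were used. The antibody against STAT5 is that for the total protein in the labels and in the paper's reporting summary, which lists it for ChIP-seq. The paper's ChIP-seq methods instead cite a product that the summary lists as specific for phosphorylated STAT5, for western blots only. Peak names in the H3K4me1 lists carry another supplier than the labels. Alternatives are given in the closing section.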

Additional observations from a re-analysis of the deposited data

Results flagged for a closer look

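The sign of a difference between the genotypes, or between LPS and no LPS, turned between groups for 3 peak counts at Il6. The number of H3K27ac peaks differed by -55 between KO and WT without LPS and by 65 between KOLPS and WTLPS, while the bases they covered were lower in both comparisons (-43.3 and -103 kb). The number of H3K4me1 peaks differed by 1 between WTLPS and WT and by -2 between KOLPS and KO. The number of H3K4me3 peaks differed by -2 between KO and WT and by 1 between KOLPS and WTLPS. Each value rests on 1 list per group, and none of these differences was tested.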

How the results depend on the processing

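Of 272 values recomputed under an alternative setting, 197 moved by less than their counting interval or stayed within 1.5 times. In a window of 100 kb to either side, peak counts were 9 for WTLPS p65, 18, 31 and 10 for WT, WTLPS and KO SMC1, 11, 12, 1 and 0 for CTCF (WT, WTLPS, KO, KOLPS) and 54, 47 and 82 for WT, WTLPS and KOLPS H3K27ac. In a window of 400 kb, CTCF counts were 46 in WT, 46 in WTLPS and 10 in KO. With −log10 p of at least 10, counts were 1 for KO STAT5, 5 and 11 for KO and KOLPS SMC1, 2 and 0 for KO and KOLPS CTCF, and 19, 28, 7 and 45 for H3K27ac (WT, WTLPS, KO, KOLPS), while H3K27ac covered 32.3 kb in WT, 6.55 kb in KO and 37.6 kb in KOLPS. That last setting was added after the data were seen for covered bases. Under it the WTLPS minus WT difference ranked 3 and KOLPS minus KO ranked 4 among all windows, with 101 and 31 kb. Where 50% of a peak had to be shared, 0% of WTLPS p65 peaks had a WT p65, KO p65 or WTLPS CTCF peak and 42.9% a KOLPS H3K27ac peak, 4% of WT CTCF peaks a KO and 0% of WTLPS CTCF peaks a KOLPS CTCF peak, and 13.7% of WTLPS SMC1 peaks a KOLPS SMC1 peak. With both lists at the stricter threshold, 100% of WTLPS p65 peaks had a WTLPS SMC1 peak, 0% of WTLPS CTCF peaks a KOLPS CTCF peak and 22.7% of WT SMC1 peaks a KO SMC1 peak. In the 100 kb window, 100% of WTLPS p65 peaks had a WTLPS SMC1, WT H3K27ac or KOLPS H3K27ac peak, 77.8% a KO SMC1 peak, and 0% of WTLPS CTCF peaks a KOLPS one. At the coverage of the other list, 97.9% of the WTLPS p65 peaks would be expected in KOLPS and 95.6% of the WT CTCF peaks in KO. These values scale the observed fragments by the ratio of backgrounds only. Differences in enrichment between lists are left out, and their part in the missing peaks was not tested. Allowing 1 mismatch, 42.9% of WTLPS p65 summits had a κB match. No paired analysis was possible because each antibody and group had 1 list and no result comes from a test. Depth limits the weakest peaks, since the WTLPS p65 peak of 7 fragments had a 72.7% chance of being called at the coverage of KOLPS.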
